A study of Mus musculus with 3 samples.

Results

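Of 13500 open chromatin windows of 201 bp, 333 held a strong match to the binding motif of the transcription factor Plagl1 together with fewer than 3 motif sites in all. They were chosen by the log-odds score that the motif search gave to each 10 bp site, with at least 1 site scoring 6.8 or higher, so score, site letters and site number describe the choice and are not results. A further 3908 windows held 1 or 2 sites whose best score was below 6.8. These are called weaker-match windows here and serve as the comparison. Another 49 windows reached 6.8 but held 3 or more sites, 154 held 3 or more sites that all scored lower, and 9056 held no site.

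The windows came from ATAC-seq, in which Tn5 transposase inserts adapters into accessible DNA, on cells from the apical part of first molars, where the root forms, of C57BL/6 mice at postnatal day 7.5. There was 1 library labelled Gli1-CreER;Arid1a fl/fl and there were 2 labelled Arid1a fl/fl, all from mice under a protocol that gave tamoxifen at postnatal day 3.5 (1.5 mg per 10 g), with 5000 cells used per group. Both genotypes carry the floxed Arid1a gene, whose product belongs to the SWI/SNF complexes that move nucleosomes. The Cre driver acts where the hedgehog target gene Gli1 is expressed, so cells of the digest outside the Gli1 lineage keep the gene. The windows are pooled over libraries and carry no value per library. Mutant and control were therefore not compared here, the depth is unknown, no value has a replicate error, and no test over windows was made. Intervals are 95% intervals that cover counting error only.

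Plagl1, also called Zac1, is a zinc finger protein encoded by an imprinted gene, and it is known to restrain the cell cycle. Zinc finger proteins of the PLAG family recognise GC-rich DNA, with a run of G followed by C at the core of the site. Near genes, GC-rich open chromatin is mostly promoter DNA with many CpG dinucleotides, while accessible DNA far from genes is usually poorer in both. A motif site is a sequence match and not a measurement of binding. As a check of the tissue, 16 of 20 genes of dental mesenchyme and root progenitors had an assigned window, and 17 of 28 odontoblast and bone genes. Among markers of other cells it was 2 of 16 for dental epithelium, 3 of 16 immune, 4 of 13 endothelial, 5 of 15 glial and neuronal and 3 of 9 for pericytes and smooth muscle. The share over all protein-coding genes was 53.5%. Some lists not tied to a tissue were higher than any of these, with 15 of 15 housekeeping and 20 of 20 mitosis genes. A window by itself thus does not mark a cell type.

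The strong-match windows held 338 sites at or above 6.8, with 53 distinct sequences. The first 5 sequences below carried the highest scores and the next 5 were the most frequent in these windows, and they are shown because they are what the choice of windows rests on. They run 5′ to 3′ along the motif strand, and capitals mark positions 4 to 9, counted from 1 at the 5′ end.
Score 7.74, 1 site: tatGAGGCCc
Score 7.61, 7 sites: catGGGGCCc
Score 7.59, 7 sites: aatGGGGCCc
Score 7.55, 3 sites: taaGGGGCCc
Score 7.54, 10 sites: catGAGGCCc
Score 6.82, 20 sites: cgaGGGGCCc
Score 7.07, 18 sites: cgtGGGGCCc
Score 7.36, 16 sites: caaGGGGCCc
Score 7.0, 15 sites: cagGAGGCCc
Score 6.98, 14 sites: agtGAGGCCc

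Taking the best site of each window, the strong-match windows shared more letters than the weaker-match windows, as their choice by score requires. Every strong site had G at positions 4, 6 and 7 and C at position 8. Position 5 was G in 183 windows (55%) and A in 150 (45%), close to the 53.5% and 46.5% of weaker sites, so this position hardly entered the choice. The capitals of the list, GAGGCC or GGGGCC, were present in 96.4% of strong and 56.6% of weaker sites. At position 2, A stood in 66.7% of strong and 33.2% of weaker sites. A CG dinucleotide lay within 14.7% of strong sites and 40.6% of weaker sites, so the choice also moves the CpG count of a window through the site itself.

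**Figure D1:**
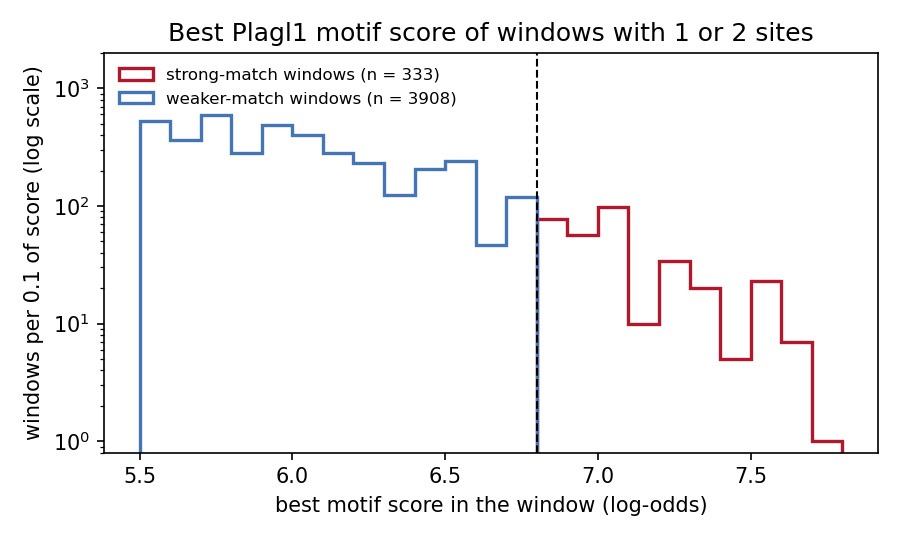
Number of windows with 1 or 2 sites by best motif score, in steps of 0.1 on a logarithmic count axis; the dashed line marks the threshold of 6.8. The 333 strong-match windows form the tail of the score distribution, with no gap at the threshold.

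The best scores of the strong-match windows ran from 6.8 to 7.74 with a median of 7.01, and those of the weaker-match windows from 5.51 to 6.795 with a median of 5.93. The threshold did not fall in a gap. The 6 windows just inside it, at 6.803, lay at gene ends of Cwc25, Zw10 and Ppm1m or outside genes nearest Dnah17, Ly86 and Tmem28, all with aaaGAGGCCa as best site. Just outside it were a window at a gene end of Pdzd7 at 6.795 with aaaGGGGCCt, one nearest Lgalsl at 6.789, and 17 windows at 6.784, among them those nearest Rcsd1, inside Itgb4 and at an end of Ext1.

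Among the strong-match windows, 217 held 1 site and 116 held 2 (34.8%, interval 29.7 to 40.2), against 736 of 3908 weaker-match windows with 2 sites (18.8%, interval 17.6 to 20.1). A window with 2 sites has 2 chances to reach the threshold, so this difference is part of the choice. In 35 of the 116 strong-match pairs the sites overlapped, and in 26 of these they lay on opposite strands with starts 4 bp apart, since the core reads nearly the same on both strands. Pairs that did not overlap numbered 81, with a median distance of 64 bp between starts (interval 49 to 75), against 65 bp (60 to 74) in 573 weaker-match pairs. The lower-scoring site of such a pair had a median score of 5.97 (interval 5.83 to 6.07) in strong-match windows and 5.70 (5.66 to 5.71) in weaker-match windows. The lower site of a weaker-match pair is capped by a best site below 6.8, so the choice bears on these medians too. In 5 strong-match windows both sites reached 6.8. They lay inside Atp5d, a subunit of ATP synthase (scores 7.06 and 7.36), near an end of Psmb1, a proteasome subunit (7.0 and 7.05), and outside genes nearest Wnt7b, a Wnt ligand (7.07 and 7.28), Cnbd2 (6.82 and 7.02) and Zfp516 (7.0 and 6.82).

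The score of the twentieth window from the top, 7.54, was shared by 10 windows, so 28 windows stood at or above it. Of these 28, 19 lay within 1 kb of a protein-coding gene end, 7 farther inside a gene and 2 outside genes, nearest Lpin2 and Ndufv1. The 20 first of them are named here, with ties in the order of the chromosome name sorted as text, then of position. The highest score of all, 7.74, was inside Trim7, a ubiquitin ligase, at chr11:48834290-48834490, in a window of 48.7% GC outside the site. Scores of 7.61 were found near Ctdsp1, a phosphatase of the RNA polymerase II tail, and inside Ebf2, a transcription factor of mesenchymal lineages. Another lay at the ends of Vps51, a tethering factor of endosome traffic, and the sterol reductase Tm7sf2. The rest at this score were near Sh3glb2, the adaptor Shf, Hacd4, an enzyme of very long chain fatty acid synthesis, and Aplp1, a relative of the amyloid precursor protein. Scores of 7.59 were found near Tbce, a tubulin folding cofactor, the thrombin receptor F2r, the transcription factor Klf12, the RNA-binding protein Mex3b and Enox2, and inside the aryl hydrocarbon receptor repressor Ahrr and Lzic. Of the rest named, at 7.55 and 7.54, windows near Rcc1, the nucleotide exchange factor of Ran, and at the shared ends of Anapc10, a subunit of the anaphase-promoting complex, and Abce1, a ribosome recycling factor, belong to genes of cell division and translation. The others lay inside Ccdc12, at the ends of Pigs, a subunit of the GPI transamidase, and the aldolase gene Aldoc, and near Ccnq, the cyclin partner of Cdk10. The 28 windows were not of 1 kind in base content, since GC outside the sites ran from 47.1% at the window nearest Lpin2 but outside it to 82.2% at the gene end of Lpin2 itself.

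For 5 of these sites the RefSeq promoter table (GRCm38.p6) held the surrounding bases, which show how different the sequence around near-identical sites can be. Capitals mark the site, written along the motif strand with 10 bases on either side.
Tm7sf2, chr19:6067902-6067931, minus strand: gaggcgccagCATGGGGCCCgcctcccagc
Shf, chr2:122369120-122369149, plus strand: cgctcagtagCATGGGGCCCtcccaactga
Enox2, chrX:49288247-49288276, plus strand: taggccaggcAATGGGGCCCaatagctgga
Anapc10, chr8:79711544-79711573, minus strand: cgccccgctgTAAGGGGCCCgctgtctcca
Pigs, chr11:78328420-78328449, plus strand: ggagaaagctCATGAGGCCCcgccccatcg

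The site of the Vps51 and Tm7sf2 window lay 66.5 bp upstream of the Tm7sf2 start and that of Enox2 19.5 bp upstream of its start, while those of Shf and Pigs each lay 12.5 bp downstream. Across the 73 strong sites with such context, the 20 flanking bases had a median GC content of 65% (interval 60 to 70), against 70% (70 to 70) around 1017 weaker sites. Single flanking positions differed by at most 12.4 percentage points. The widest difference was at the sixth base after the site, where G stood in 18 of 73 strong contexts (24.7%, interval 15.3 to 36.1) and in 37.1% (34.1 to 40.1) of weaker ones, the largest of 80 such values and thus picked by its size.

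The base content of the strong-match windows was close to that of the weaker-match windows and slightly lower in CpG. With the bases of the sites left out, median GC was 66.3% (interval 65.4 to 68.0) in strong-match windows and 67.0% (66.5 to 67.5) in weaker-match windows, a difference of -0.71 percentage points (interval -1.72 to 1.02). Over the whole window, CpG dinucleotides had medians of 8.5 per 100 steps (7.5 to 9) in strong-match windows and 9 (9 to 9.5) in weaker-match windows. Outside the sites, where the letters of the site have no part, the medians were 8.38 (7.85 to 9.34) and 9.34 (8.90 to 9.42), a difference of -0.96 with an interval from -1.49 to 0.096, which takes in 0. The 9056 windows without a site stood at 66.2% GC (65.7 to 66.2) and 9 CpG per 100 steps (9 to 9). The range within the strong-match windows was far wider than any of these differences, from 34.0% to 85.3% GC outside the sites and from 0 to 18.5 CpG per 100 steps.

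**Figure D2:**
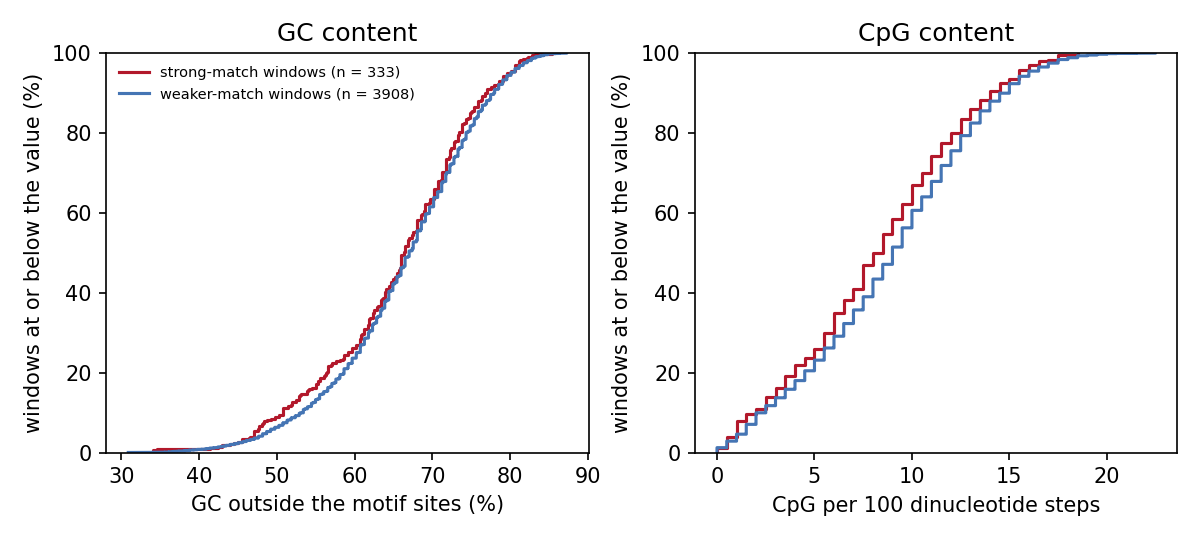
Cumulative share of windows by GC content outside the motif sites (left, percent) and by CpG dinucleotides per 100 steps over the whole window (right), for 333 strong-match and 3908 weaker-match windows. The GC curves nearly coincide, with medians of 66.3% and 67.0%, and the CpG curve of the strong-match windows lies slightly to the left.

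Seen the other way round, 7.85% (interval 7.06 to 8.70) of the 4241 windows with 1 or 2 sites were strong matches. By GC outside the sites this share was highest from 45 to 50% GC, with 22 of 181 windows (12.2%, interval 7.78 to 17.8), and lowest at 75% GC and above, with 50 of 763 (6.55%, interval 4.90 to 8.55). By CpG it was 10.4% (7.22 to 14.3) below 2 per 100 steps and 6.45% (4.62 to 8.71) at 14 and above. Within windows of 60 to 70% GC, the share was 10.3% (9 of 87), 9.45% (57 of 603), 6.70% (54 of 806) and 3.67% (4 of 109) as CpG went from below 4 through 4 to 8 and 8 to 12 to 12 or more per 100 steps. The intervals of these 4 shares overlap (the outer pair ran from 4.84 to 18.7 and from 1.01 to 9.13), and the CpG of the sites themselves is counted in them.

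**Figure D3:**
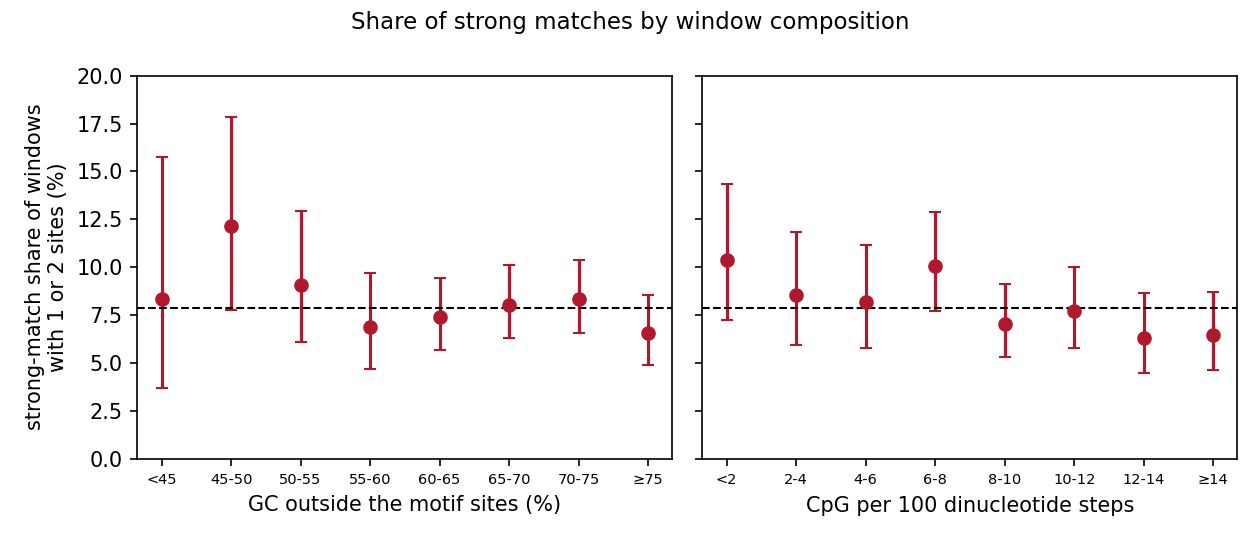
Share of windows with 1 or 2 sites that are strong matches (percent, points with exact 95% intervals), by GC content outside the sites (left) and CpG per 100 steps (right); the dashed line is the share over all such windows, 7.85%. Every interval plotted includes the line, and the shares at 8 or more CpG per 100 steps lie below it.

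By position, most strong-match windows lay at gene ends, as did the others, and the strong-match windows lay outside genes more often, a difference that depended on the number of sites and the threshold. Of the 333, 214 had their midpoint within 1 kb of either end of a protein-coding gene (64.3%, interval 58.9 to 69.4), 60 lay farther inside a gene (18%, 14 to 22.6) and 59 lay outside (17.7%, 13.8 to 22.3). The inside class rests on the ends of the gene span alone, so it also takes in windows at transcription starts within the span. In many such windows the best site lay close to a start, for example 13.5, 36.5, 53.5, 81.5 and 107.5 bp from one. The inside class and its medians thus do not stand for gene bodies alone. The weaker-match windows had 67.5% (66.0 to 68.9) at gene ends, 20.0% (18.8 to 21.3) inside and 12.5% (11.5 to 13.6) outside. The difference for windows outside genes was 5.18 percentage points, with an interval of 1.09 to 9.83, and that at gene ends was -3.19 with an interval of -8.79 to 2.18. With exactly 1 site in both groups the difference outside genes was 3.36, with an interval of -1.42 to 9.06 that takes in 0. At a score threshold of 7.2 it was -0.74 (interval -6.79 to 7.92), with 90 strong-match windows, so its direction rests on the windows between 6.8 and 7.2. Counting all annotated genes, noncoding ones included, 10.8% of strong-match and 7.04% of weaker-match windows lay outside.

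**Figure D4:**
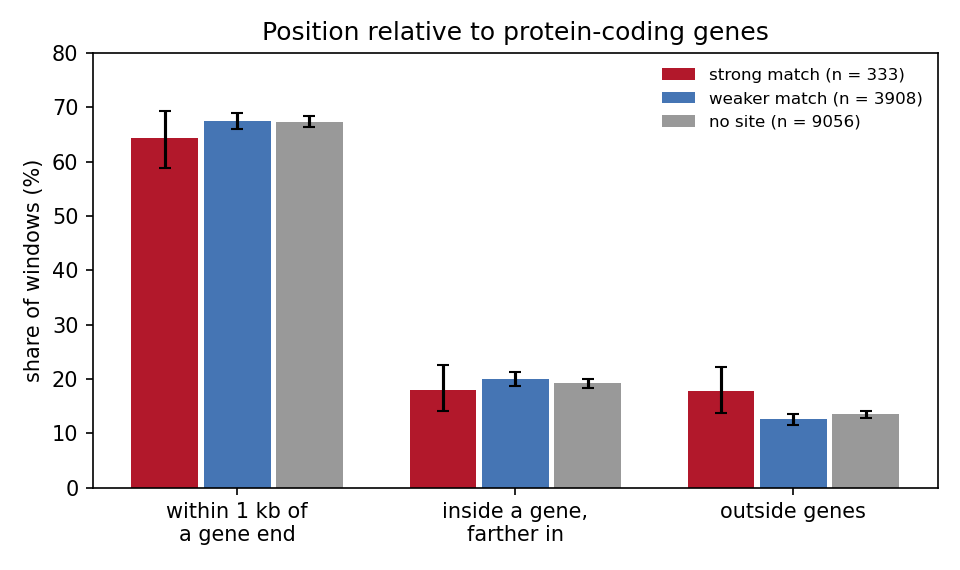
Share of windows (percent, bars with exact 95% intervals) within 1 kb of a protein-coding gene end, farther inside a gene and outside genes, for strong-match, weaker-match and site-free windows. The bar of strong-match windows outside genes stands at 17.7%, against 12.5% and 13.5%, with an interval that overlaps that of site-free but not of weaker-match windows; the other classes overlap in their intervals.

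The 3 classes differed in base content in the same way in both groups. Strong-match windows at gene ends had a median of 68.8% GC outside the sites and 9.5 CpG per 100 steps, against 68.6% and 10 in weaker-match windows there. Inside genes the strong-match windows had 64.1% GC and 7.5 CpG, against 65.3% and 7.5 in weaker-match windows. Outside genes they had 55.5% GC (interval 52.5 to 59.1) and 3.5 CpG (2.5 to 5.5), against 57.1% (56.0 to 58.1) and 3.5 (3 to 4). Windows outside genes thus carry the lower CpG, and the larger share of them among strong-match windows goes with the lower CpG of the whole group; the part of one in the other was not tested. Within ranges of GC outside the sites, the share outside genes was higher in strong-match windows in 3 of 4 ranges, and the intervals overlapped in all 4. It was 49.1% (35.6 to 62.7) of strong-match and 40.2% (36.0 to 44.6) of weaker-match windows below 55% GC, 18.2% (10.8 to 27.8) and 16.1% (14 to 18.3) from 55 to 65%, 10.1% (5.66 to 16.4) and 4.72% (3.72 to 5.90) from 65 to 75%, and 2.0% (0.051 to 10.6) and 3.79% (2.51 to 5.46) from 75% up. The share at gene ends had no common direction. It was 19.3% of strong-match and 27.3% of weaker-match windows below 55% GC, 65.9% and 64.5% from 55 to 65%, 71.7% and 78.0% from 65 to 75%, and 92.0% (80.8 to 97.8) and 78.4% (75.2 to 81.4) from 75% up, where 50 strong-match windows lay.

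Most of the gene ends were starts of transcription. Starts and strands were read from the promoter table, which held 79.9% of the protein-coding genes and none on chromosome 18. Of 170 strong-match windows at gene ends whose genes were all in that table, 164 (96.5%, interval 92.5 to 98.7) had their best site within 1 kb of a start, against 2008 of 2094 weaker-match windows (95.9%, 95.0 to 96.7). Among all strong sites within 1 kb of a start, 57 of 195 lay upstream (29.2%, 23.0 to 36.2), against 33.6% (31.7 to 35.5) of 2414 weaker sites. Their median position was 84.5 bp downstream of the start (72.5 to 113.5), against 71.5 bp (62.5 to 79.5) for weaker sites. The motif ran along the gene's own strand in 93 of the 195 (47.7%, 40.5 to 54.9), against 55.8% (53.8 to 57.8) of the weaker sites. Within the 201 bp window the best site lay a median of 49.5 bp from the centre (44.5 to 55.5), against 48.5 bp (46.5 to 49.5) in weaker-match windows.

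**Figure D5:**
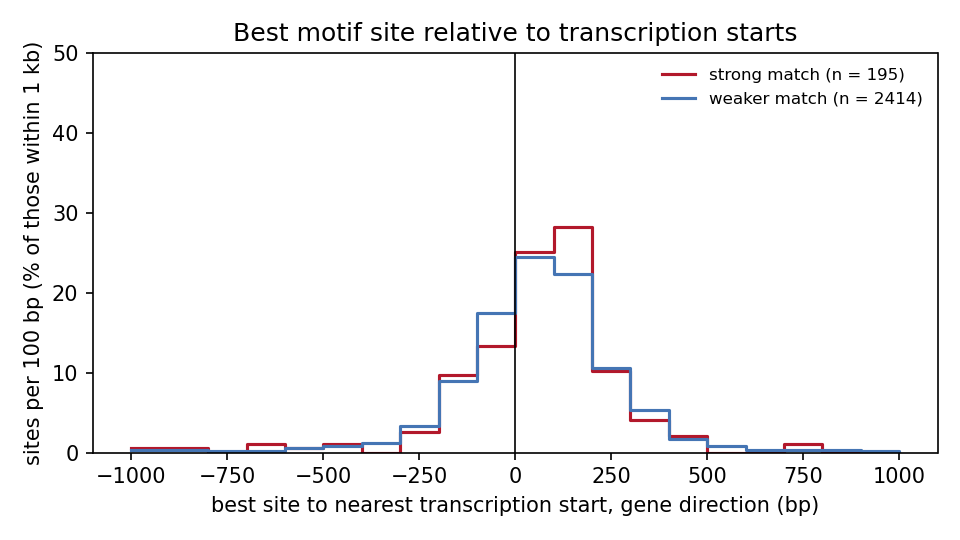
Best motif site of each window relative to the nearest protein-coding transcription start, in the direction of the gene, as percent of sites per 100 bp among those within 1 kb (195 strong and 2414 weaker sites). Both curves are highest in the 200 bp after the start; the bin from 100 to 200 bp holds 28.2% of strong and 22.3% of weaker sites.

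To see how often such strong words occur in promoters at large, the 300 bp promoters of protein-coding genes (250 bp before to 50 bp after the start) were searched for every 10 bp word scoring 6.8 or higher by the recovered motif matrix. There were 55 such words, all with G, then G or A, then GGC at positions 4 to 8, and both strands were searched with overlapping matches allowed. A strong word was present in 249 of 7319 promoters that overlapped a window (3.40%, interval 3.0 to 3.84) and in 602 of 13910 promoters that did not (4.33%, 4.0 to 4.68), or 4.01% of all 21229. The promoters with a window had a median of 63.3% GC and 8.03 CpG per 100 steps, against 51.7% and 2.01 in the others. At 55 to 65% GC the shares were 3.25% (2.65 to 3.94) with a window and 6.51% (5.71 to 7.38) without, the widest gap of the GC ranges. They were 3.88% and 5.34% at 65 to 75% GC, and 3.95% and 3.46% from 75% up, with overlapping intervals in both ranges. Within 55 to 65% GC they were 6.59% (3.45 to 11.2) with a window and 9.46% (8.06 to 11) without below 4 CpG per 100 steps, 3.38% (2.62 to 4.28) and 4.24% (3.29 to 5.36) from 4 to 8, and 2.38% (1.50 to 3.58) and 3.40% (1.77 to 5.86) from 8 to 12. Within 55 to 65% GC, strong words were thus more frequent where CpG was lower, and in each of these CpG ranges the intervals of the 2 kinds of promoter overlap. The shares also fell with rising CpG at 65 to 75% GC, from 4 CpG per 100 steps upward, in both kinds of promoter. The intervals of the CpG ranges overlapped there. Promoters below 55% GC, the poorest in CpG, were not divided by CpG, so this trend was not tested in them. Taken whole, they held a strong word in 2.35% (1.52 to 3.45) of cases with a window and 3.28% (2.91 to 3.68) without.

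Strong-match windows were assigned to 312 protein-coding genes, that is 7.45% of the 4186 genes with an assigned window holding any site. A window was assigned to each gene in which its midpoint lay or from whose ends it was at most 1 kb away; 274 strong-match windows had such a gene, 41 of them at least a pair of genes, and 59 had a nearest gene only. Of 425 genes in 21 lists of pathways and cell types, 125 had a window with a site and 10 of these (8.0%) had a strong-match window, a share near that of all genes. They were the hedgehog genes Smo and Evc2, the BMP and TGF-beta genes Bmp7, Bmpr2, Smad3 and Smad5, and Pcna, Spry1, Nf2 and Cd3d.

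Hedgehog signalling, the pathway whose target Gli1 drives the Cre of this study, runs from the receptor Ptch1 through Smo in the primary cilium to the Gli factors. Of 28 genes of the pathway, 17 had a window with a site and 2 a strong-match window, where the share over all genes was 7.45%. Smo, the membrane protein that passes the signal on, had sites of 6.82 and 6.32 at chr6:29735817-29736017, with 68.5% GC outside the sites and the stronger site, cgaGGGGCCc, 354.5 bp downstream of the start. Evc2, a ciliary protein that acts with Smo, had sites of 7.07 and 5.66 at chr5:37338434-37338634, with 69.1% GC and the stronger site, cgtGGGGCCc, 85.5 bp downstream of the start. Gli1 itself had 1 window, inside the gene, with weaker sites of 5.93 and 5.52. Plagl1 had 1 window and Arid1a had 3, without a site in any of them.

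In the list for BMP and TGF-beta signalling, 15 of 37 genes had a window with a site and 4 a strong-match window. The share over all genes was 7.45%, and the difference for so few genes was not tested. Bmp7, a ligand, had overlapping sites of 5.52 and 6.82 in a window whose midpoint lay 5 bp from a gene end, at chr2:172940216-172940416. Bmpr2, a type II receptor, had 1 site of 6.98 located 952.5 bp upstream of its start, in a window of 79.6% GC and 14.5 CpG per 100 steps. Smad5, a transducer of BMP signals, had sites of 6.46 and 6.98 in a window of 82.9% GC and 18.5 CpG per 100 steps, the highest CpG among strong-match windows, shared with a window at the RNA-binding protein Rbm15b. Smad3, which transduces TGF-beta and activin signals, differed from these. Its 2 strong-match windows, with best scores of 7.54 and 6.81, lay 22097 and 41595 bp from the nearest gene end and had 52.5% and 51.9% GC with 0 and 2.5 CpG per 100 steps, while its window at the gene end held no site.

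Among the other lists, Pcna, the sliding clamp of DNA replication, was the only 1 of 9 genes of G1 and S phase with a site whose window was a strong match (scores 6.98 and 5.72). None of 5 cell cycle inhibitors, 4 mitosis genes, 12 SWI/SNF subunits, 12 Wnt genes, 8 Notch genes, 5 odontoblast and bone genes, 4 genes of dental mesenchyme, 8 imprinted genes, 4 genes of the Plagl1 network, 8 housekeeping genes or the 1 PLAG family gene with a site had one. With a share of 7.45% over all genes, lists this short can lack one without standing apart. Spry1, a feedback inhibitor of FGF signalling and 1 of 2 listed FGF genes with a site, had sites of 5.73 and 7.07. They lay in a window 1022 bp from a gene end, and the Spry1 window closer to the end held no site. Nf2, which encodes merlin and acts upstream of the Hippo kinases, had 1 site of 6.95 and was 1 of 5 listed Hippo genes with a site. Of the marker lists of other cell types, Cd3d, a subunit of the T cell receptor complex, was 1 of 2 immune markers with a site. It had 1 site of 6.89 in a CpG-poor window (1 per 100 steps). No marker of dental epithelium (1 with a site), endothelium (3), glia and neurons (3) or pericytes and smooth muscle (2) had a strong-match window.

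Besides Smad3, 2 genes had a pair of strong-match windows. Cdc14b, a phosphatase of mitotic exit, had one of 77.5% GC near its end (best score 7.27) and one of 61.9% GC inside the gene (6.87). The best site of the latter window lay 174.5 bp upstream of a transcription start of Cdc14b within the gene span. Tnfaip8l1, a member of the TNFAIP8 family, had one with its best site (6.81) located 64.5 bp downstream of its start. The other (best score 7.0) was assigned to a neighbouring gene as well. Its best site lay 134.5 bp downstream of the start of that neighbour.

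The extremes of base content fell at different positions. The 5 strong-match windows of highest GC outside the sites, from 82.2% to 85.3%, all lay at gene ends, namely those of Fgfrl1, an FGF receptor-like protein, Paip1, which binds the poly(A)-binding protein, Smad5, the pair Strn3 and Ap4s1, and Lpin2, a phosphatidate phosphatase. The 5 of lowest GC, from 34.0% to 42.4%, all lay away from gene ends. Those inside genes were in Sp1, a GC-box transcription factor, Tex14, a protein of germ cell bridges, and Sv2c, a synaptic vesicle protein. Those outside were nearest Msx2, a homeobox gene of tooth and skull mesenchyme 59244 bp away, and Trim2, a ubiquitin ligase 47899 bp away. The window near Msx2, at chr13:53531924-53532124, held 1 site of 6.93, tatGAGGCac, and had no CpG dinucleotide, which was the case in 4 strong-match windows.

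The 5 strong-match windows farthest from any protein-coding gene had as nearest genes Snrpn, an imprinted splicing gene (185163 bp away), Zxdb (135613 bp), Tle3, a Groucho co-repressor (74781 bp), Irf2bp2, a transcriptional co-repressor (72739 bp) and Wnt7b (72067 bp). Of genes in the lists, the Notch target Hes1 (1448 bp away, best score 7.05), the FGF receptor Fgfr4 (13882 bp, 7.01) and the secreted Wnt antagonist Sfrp2 (15716 bp, 6.87) were also nearest to a strong-match window outside genes. A nearest gene is named only for its place on the chromosome.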

How the data were processed

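ATAC-seq windows pooled over 3 libraries were analysed, with no column per library. Per the submitters' processing notes, the build was mm10 and the tools named are MACS2 2.1.1, edgeR 3.20.7.2, Bowtie2 2.3.5, cutadapt 1.18, FastQC 0.11.8, Picard and bedtools. Per the file headers, HOMER searched windows around the centres of a union peak list for the Zac1 (Plagl1) motif; the making of that union is not stated. The deposited GC and CpG values are fractions of bases and of dinucleotide steps, and were turned into percent. The deposited score of a site is HOMER's log-odds score, of unstated log base. All 5753 sites were found in the site list by coordinates and strand, and the 1493 sites lying in RefSeq promoter sequences had the same bases there.

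Gene positions came from RefSeq GRCm38.p6, the assembly behind mm10. Sites were cut out of a window before its GC was computed. The motif matrix was solved from the site sequences and their scores (largest error 6.1e-07). Shares have exact Clopper-Pearson intervals and medians exact order-statistic intervals; differences use the square-and-add interval of both. The functions were checked on simulated windows. The windows, gene lists and rule for named genes were chosen with earlier results of these data known. That rule took the 20 highest-scoring windows, windows with both sites at 6.8 or higher, list genes, genes with 2 or more strong-match windows, the extremes of GC and distance, and the 5 windows on either side of the threshold; Lpin2 and Ndufv1 as nearest genes, Tmem28, Rbm15b, Asmt, Cks2, H2ac12 and H2bc12 fall outside it and were named after their values were seen. Python 3.11.15, numpy 2.4.6, pandas 2.3.3, scipy 1.17.1 and matplotlib 3.10.9 were used.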

Additional observations from a re-analysis of the deposited data

How the results depend on the processing

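The number of strong-match windows was 741 at a score threshold of 6.5, 90 at 7.2 and 217 with exactly 1 site, against 333 as reported and 382 with any number of sites. The difference in the share outside genes changed sign at a threshold of 7.2 (-0.74 percentage points) and ran from 3.36 to 5.14 under the other alternatives, of which all annotated genes and a distance of 3 kb were added after seeing the data. With exactly 1 site in both groups it was 3.36, with an interval of -1.42 to 9.06 that takes in 0. The differences in GC outside the sites, CpG, share at gene ends and distance from the centre stayed within the interval of the reported value under every alternative run. At 3 kb from a gene end the difference in the share at gene ends was -5.50 (interval -10.9 to -0.40). At a score threshold of 6.5 the difference in CpG was -1 per 100 steps (interval -1.5 to -0.5), which leaves out 0. It was taken over the whole window and so counts the CpG of the sites. Depth is unknown, and no library could be left out of pooled windows. No paired analysis was possible because the windows are pooled over libraries and the results come from no test.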

Other observations

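Strong-match windows were unevenly spread over the chromosomes. On chromosome 13, 28 of 179 windows with 1 or 2 sites were strong matches (15.6%, interval 10.7 to 21.8), against 305 of 4062 on the other chromosomes (7.51%, 6.72 to 8.36). The lowest share among chromosomes with more than 1 such window was on chromosome 3, with 7 of 201 (3.48%, 1.41 to 7.04). Chromosome 13 was picked by its size from 21 chromosomes. Its strong-match windows began between 12565846 and 119428919 and carried 18 different best sequences, with 16 at gene ends, 5 inside genes and 7 outside. Base content of the windows with 1 or 2 sites did not stand apart there, with a median of 67.0% GC outside the sites both on chromosome 13 and on the others, and 8.5 against 9 CpG per 100 steps. Genes at these windows included Smad5, Cks2, a subunit of cyclin-dependent kinases, Cdc14b and the histone genes H2ac12 and H2bc12. They are examples picked after the values were seen and do not stand for the 28 windows.

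The limit of fewer than 3 sites kept out a tandem repeat. The word tgtGAGGCCc, with a score of 7.2, had 25 sites in all windows, of which 5 lay in strong-match windows and 20 in windows with 3 or more sites. Of these 20, 18 lay in 4 windows of chromosome X between 170736573 and 170843155, where Asmt was the nearest protein-coding gene. Neighbouring copies within a window were 31 bp apart in 9 of 14 cases. The 49 windows kept out by the limit held 70 sites of 6.8 or higher.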
